A study of Mus musculus with 288 samples.

Results

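A set of 7 genes for making serotonin and catecholamines, loading them into vesicles, taking them up and breaking them down was followed in single cells of the mouse proximal small intestine that are labelled as enteroendocrine L-cells. The rule named them and used no measured value of theirs, and all 7 were found among the 46078 mouse genes of the count table: Tph1, Ddc, Slc18a1, Slc18a2, Th, Maoa and Slc6a4. They were read in 250 of 288 cells, those with at least 20000 reads on mouse genes and at most 20% of these on mitochondrial genes.

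The cells came from 3 male mice aged 20 to 21 weeks on a C57BL6 background that carry GLU-Venus, a yellow fluorescent reporter driven by the proglucagon promoter, so that cells making proglucagon (PPG-cells) could be sorted by their fluorescence. All mice carried the transgene and none received a treatment. The sequencing pools (SLX-11175, SLX-11179 and, much deeper, SLX-9703) held 96 cells each and were taken as 1 mouse each, which the labels do not state. Every cell is labelled as an L-cell, while the study describes non-fluorescent control cells for the mice sequenced at lower depth and fluorescent cells alone for the deeper one, and the labels do not mark which cells the controls are. The number of cells used was 75, 87 and 88, with a median of 52571, 70726 and 1975706 reads on mouse genes, so that a single read there stands for a much lower level.

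Serotonin is made in 2 steps: tryptophan hydroxylase 1 (Tph1) hydroxylates tryptophan and aromatic L-amino acid decarboxylase (Ddc) removes the carboxyl group. Tyrosine hydroxylase (Th) opens the catecholamine route in the same way, and Ddc then yields dopamine. The vesicular monoamine transporters VMAT1 (Slc18a1) and VMAT2 (Slc18a2) load the amine into vesicles, monoamine oxidase A (Maoa) degrades it, and the serotonin transporter (Slc6a4) takes it back up from outside the cell. In the gut the classical serotonin cell is the enterochromaffin cell.

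Cells were grouped within each pool by 3 marker genes: Pzp (pregnancy zone protein) at 100 CPM or more (CPM, reads of a gene scaled to 1000000 reads on mouse genes), Gcg (proglucagon) at 10000 CPM or more, and Gip (glucose-dependent insulinotropic peptide, the hormone of K-cells) at 10000 CPM or more. Exactly 1 marker was reached by 14, 22 and 28 cells for Pzp (64 in all), by 16, 18 and 19 for Gcg (53) and by 10, 5 and 10 for Gip (25), with the pools in the order named above, which is kept for all values below. Another 5 cells reached 2 markers and 103 reached none. Within 2-fold of its cut, Pzp had 5 cells above and 1 below, Gip 3 above and 1 below, and Gcg 5 above and 11 below, 8 of the 11 in SLX-9703, where 20 cells reached the Gcg cut. The lowest Pzp level inside was 104 CPM and the highest outside 92.2 CPM, for Gcg these were 11122 and 9545 CPM, and for Gip 10823 and 9169 CPM. The study itself described a cell group by Tph1 in these cells, and used Th to track another group by qPCR in separately sorted cells. The group pattern of both genes is therefore not independent evidence for those groups.

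The label of an endocrine cell was checked against 8 enteroendocrine markers, among them the granule proteins Chga and Chgb: all 8 had reads in the Pzp, Gcg and Gip cells of every pool. All 8 also had reads in the cells without a marker, so their presence does not tell the groups from other cells. The sums were 3112, 2852 and 6369 CPM in Pzp cells and 17803, 14608 and 32091 CPM in Gcg cells. They were 1582, 4447 and 5576 CPM in Gip cells and 2984, 6250 and 23199 CPM in cells without a marker. Mast cells, which also make and load monoamines, were checked with 11 genes. Only 2 or 3 of these had a read in the Pzp, Gcg or Gip cells of any pool. Kit and Hdc (histidine decarboxylase) had reads in all 3 groups of every pool. In SLX-9703 Kit was read in 24 of 28 Pzp, 18 of 19 Gcg and 4 of 10 Gip cells. Hdc was read there in 24, 17 and 8 of these cells. Over groups and pools the sums ran from 0.291 to 35.7 CPM for Kit and from 1.72 to 24.1 CPM for Hdc. The proteases Mcpt1, Mcpt2, Mcpt4, Tpsb2, Tpsab1 and Cma1 were at 0 in all 3 groups of every pool. Of 8 neuronal genes, 6, 7 and 7 had reads in Pzp cells, with peripherin (Prph) at 0 in all 3 groups. Most of the sum came from Snap25 (a vesicle fusion protein), at 104, 164 and 272 CPM in Pzp cells, and from the receptor gene Ret, at 136, 135 and 136 CPM. The summed neuronal list was 295, 309 and 426 CPM in Pzp cells, 187, 202 and 180 CPM in Gcg cells, and 38.1, 59.1 and 72.02 CPM in Gip cells. The 6 goblet cell genes separated the groups as well, with sums of 8414, 9508 and 11112 CPM in Pzp cells, 929, 1914 and 2004 CPM in Gcg cells, and 23.8, 209 and 141 CPM in Gip cells. Of the 6 genes 4, 4 and 5 had reads in Pzp cells, with Clca1 at 0 in all of these sums. A list of 9 enterocyte genes summed to 2593, 2663 and 3633 CPM in Pzp cells and 1878, 2413 and 3180 CPM in Gcg cells. In Gip cells it summed to 761, 1189 and 1063 CPM. A list of 6 tuft cell genes stood at 21.2, 21.0 and 28.7 CPM in Pzp cells. Its sums were 1.79, 0.626 and 9.51 CPM in Gcg cells and 0, 0 and 0.583 CPM in Gip cells. The part of other cell types in the results below was not tested. The cells without a marker were mixed. The 8 genes of leukocytes and plasma cells summed to 351540, 229854 and 324 CPM there, with cell medians of 463, 189 and 1.82 CPM and highest cells at 688299, 713605 and 2714 CPM, against sums of 32.8 to 319 CPM in the Pzp, Gcg and Gip cells. The 9 enterocyte genes summed to 1406, 1845 and 8540 CPM in the cells without a marker. They reached 29330 CPM in the highest Gcg cell and 113699 CPM in the highest cell without a marker, so that the label of an L-cell does not hold for all of the 103.

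The DNA ahead of both hydroxylase genes is shown because Tph1 and Th are the members with a difference past the threshold of the test below. The sequences are RefSeq windows (GRCm38.p6, 5′ to 3′ on the gene's strand, lower case, with motif matches in capitals), and 6 of the 7 members have windows there. RefSeq lists 2 starts for Tph1. The window before the upstream start is at chr7:46672538-46672787 on the minus strand and the window before the other, which lies within the gene outside any annotated exon, is at chr7:46667378-46667627. The Th window, which lies inside the annotated Th gene, is printed as chr7:142900015-142900245 on the minus strand, and the 19 bases nearest the RefSeq start, annotated as exon, are left out of it.
Tph1 upstream start: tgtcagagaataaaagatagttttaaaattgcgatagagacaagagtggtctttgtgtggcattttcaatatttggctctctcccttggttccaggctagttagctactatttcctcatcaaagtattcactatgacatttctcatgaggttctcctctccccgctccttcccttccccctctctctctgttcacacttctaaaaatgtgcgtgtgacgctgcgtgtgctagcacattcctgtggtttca
Tph1 downstream start: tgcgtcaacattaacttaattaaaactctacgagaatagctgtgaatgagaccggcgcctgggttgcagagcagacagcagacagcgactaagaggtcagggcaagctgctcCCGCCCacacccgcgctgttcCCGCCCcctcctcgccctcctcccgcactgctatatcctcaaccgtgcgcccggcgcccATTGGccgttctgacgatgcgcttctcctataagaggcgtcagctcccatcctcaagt
Th: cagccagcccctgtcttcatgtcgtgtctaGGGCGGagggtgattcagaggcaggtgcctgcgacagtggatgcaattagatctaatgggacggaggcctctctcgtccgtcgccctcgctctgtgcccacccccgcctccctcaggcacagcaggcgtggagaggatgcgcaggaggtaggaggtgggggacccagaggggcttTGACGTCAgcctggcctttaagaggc
The motifs searched on both strands were TGACGTCA (a cyclic AMP response element), the TATA box TATAAA, the CAAT box written as CCAAT, the GC box GGGCGG and the E-box CAGATG, and none overlaps another in these windows. The Th window holds TGACGTCA 45 bases before the RefSeq start (the left-out bases counted), a motif found in 1.55% of all 32851 promoter windows of the table, and GGGCGG, found in 32.7%. The downstream Tph1 window holds CCAAT (33.8% of windows) and 2 copies of GGGCGG, written above as the reverse complement, while the upstream window held none of the 5 motifs. These matches describe letters only.

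Tph1 (ENSMUSG00000040046, mm10 chr7:46644641-46672537, minus strand) was the member that set Pzp cells apart. Summed over the Pzp cells of a pool, its level was 156, 210 and 597 CPM (321 ± 240, SD, n = 3 pools). In Gcg cells it was 0, 0 and 0.464 CPM, and in Gip cells 0, 0 and 0.583 CPM, so that the Pzp sum was above both others in every pool. Single cells of the groups did overlap. In SLX-9703 the lowest Pzp cell held 0.426 CPM, and the highest Gcg and Gip cells held 2.21 and 4.96 CPM. A pool sum of 0 allows up to 2.68 and 1.88 CPM in the Gcg cells and 7.14 and 5.37 CPM in the Gip cells of the shallow pools, counting 3 reads. Tph1 was therefore at least 58.4-fold and at least 112-fold higher in Pzp than in Gcg cells of the shallow pools, and 1286-fold higher in SLX-9703. Against Gip cells it was at least 21.9-fold, at least 39.1-fold and 1025-fold higher.

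Over the 3 pools, edgeR's quasi-likelihood test, adjusted by Benjamini-Hochberg over 9654 genes, gave a log2 fold change for Tph1 of 10.34 (SE 0.79, adjusted p = 6.28e-06) in Pzp over Gcg cells and of 9.23 (SE 0.82, adjusted p = 1.67e-05) in Pzp over Gip cells. Fitted folds against groups at or near 0 depend on a prior count and are no bound. Tph1 was the sole member past the threshold in Pzp over Gcg cells, a contrast in which 0.249% of all genes tested passed (24 genes, 10 higher, or 0.104%, and 14 lower, or 0.145%). In Pzp over Gip cells 2 of the 6 members tested, Tph1 and Th, passed, where 2.84% of all genes did (169 higher, 1.75%, and 105 lower, 1.09%). In Gip over Gcg cells 1 member, Th, passed, where 1.1% did (37 higher, 0.383%, and 69 lower, 0.715%). The Tph1 difference between Gip and Gcg cells did not pass (log2 fold change 1.11, SE 0.87, adjusted p = 0.665). Both groups held 0 reads in the shallow pools, with 8 and 23 reads in SLX-9703, so nothing is read from that contrast. The pool was a block in the fit. P-values therefore rest on how far the difference between groups varied over the 3 pools, not on the pools' own levels.

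Among the Pzp cells themselves Tph1 was uneven. A read was found in 10 of 14, 11 of 22 and 28 of 28 cells, and after thinning every cell to 20000 reads the expected share was 61.6%, 44.5% and 81.8%. Cell medians were 115, 11.5 and 474 CPM, and the highest cells reached 483, 841 and 1304 CPM. Of the 64 Pzp cells, 15 had no Tph1 read, 9 were above 0 but under 50 CPM, 8 lay from 50 to 200 CPM, 15 from 200 to 500 CPM and 17 at 500 CPM or more. The 15 cells at 0 were all in the shallow pools, and 5 of the 28 Pzp cells of SLX-9703 lay under 50 CPM. The part of depth in the spread was not tested. Across the Pzp cells of a pool, Spearman correlations of Tph1 were 0.20, 0.13 and 0.14 with reads and -0.01, -0.01 and 0.04 with Pzp (14, 22 and 28 cells, sharing a library pool).

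At 50 CPM, a level of at least 1 read in 20000, Tph1 was found in 52 cells: 40 Pzp cells, 12 cells without a marker, and no Gcg or Gip cell. In SLX-9703 a Tph1 read did occur in 11 of 19 Gcg cells and 6 of 10 Gip cells, but the highest was 2.21 CPM and 4.96 CPM, and thinned to 20000 reads the expected share was 1.03% and 2.16%. In the shallow pools 0 of 16 and 0 of 18 Gcg cells had a read, with exact 95% upper limits of 20.6% and 18.5% for the share of cells with a read at that depth, which set no limit on the share that express the gene.

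**Figure D1:**
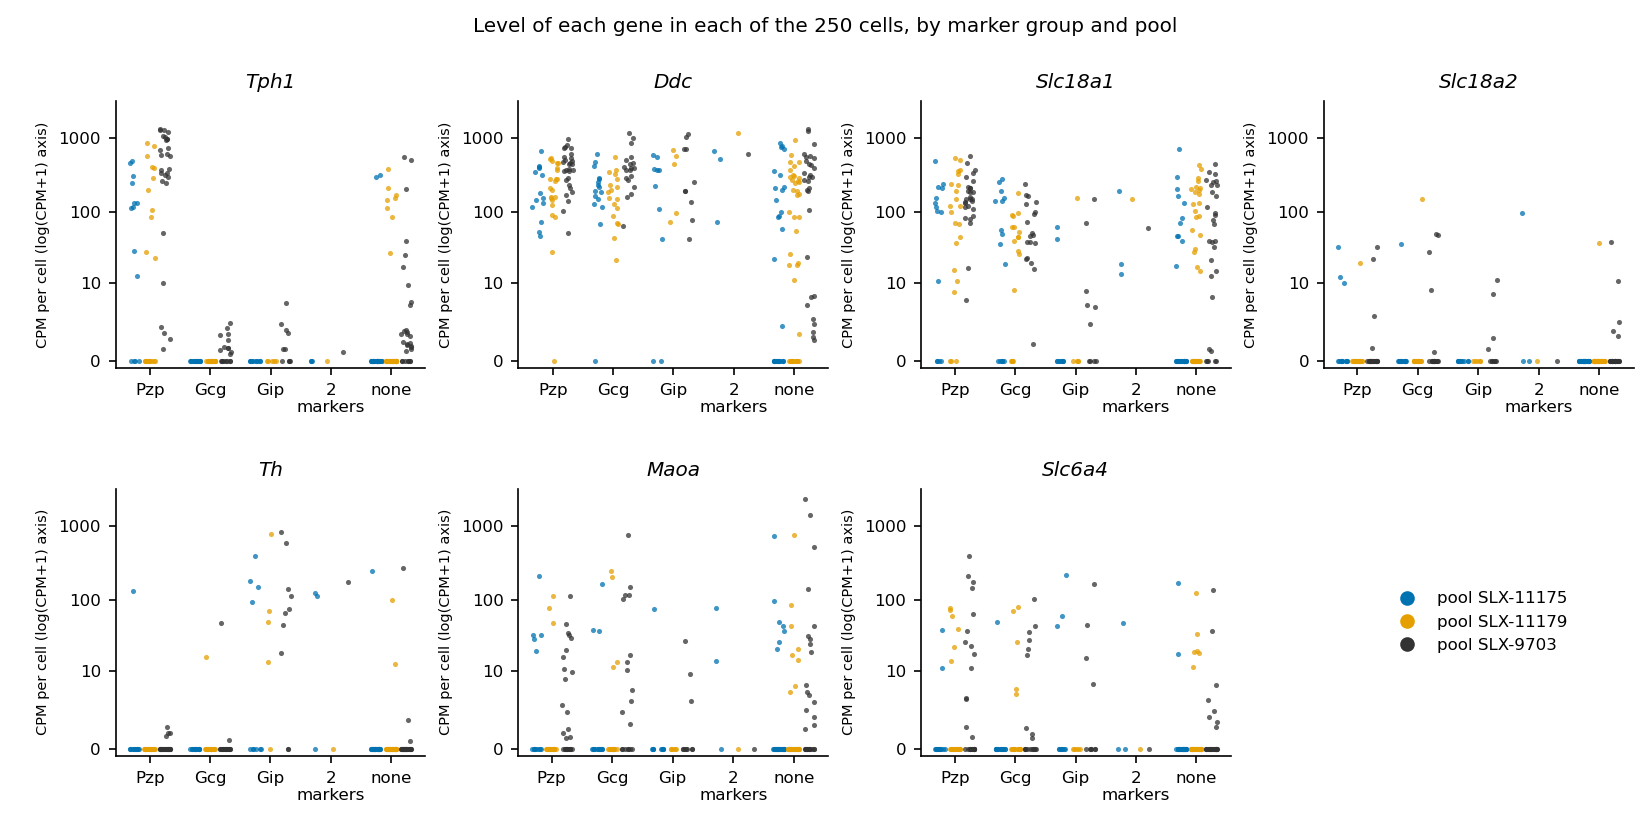
Level of each of the 7 genes in each of the 250 cells (vertical axis, CPM on a log(CPM+1) scale) by marker group, with points coloured by pool. Tph1 at 50 CPM or more lies in Pzp cells (40 cells) and cells without a marker (12 cells), Th mainly in Gip cells (12 of 19 cells), and Ddc in every group.

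Th (ENSMUSG00000000214, chr7:142892752-142931128, minus strand), the rate-limiting enzyme of catecholamine synthesis, was the member of the Gip cells. Its level summed over Gip cells was 99.9, 183 and 110 CPM (131 ± 45.2, SD, n = 3 pools). In Gcg cells it was 0, 0.626 and 2.22 CPM, and in Pzp cells 10.6, 0 and 0.0679 CPM. The Gip cells were above both other groups in every pool. The 10.6 CPM of the Pzp cells in SLX-11175 came from 9 reads of a single cell, and 109 of the 110 reads behind the 2.22 CPM of the Gcg cells in SLX-9703 from another.

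Th passed edgeR's quasi-likelihood test in Gip over Gcg cells with a log2 fold change of 6.87 (SE 1.29, adjusted p = 0.0155) and in Pzp over Gip cells with -7.62 (SE 1.51, adjusted p = 0.0111). In SLX-11179, 1 of the 5 Gip cells stood at 778 CPM and held 84.3% of the Th reads of that sum, which was 35.7 CPM without it. In SLX-11175 a Gip cell held 64.3% of the reads, and the sum was 55.6 CPM without it. Both calls were lost without SLX-11179, where the values were 6.43 (adjusted p = 0.174) and -6.40 (adjusted p = 0.187) by the same edgeR test, and without SLX-11175 the second was -11.85 (adjusted p = 0.000217). The Gip over Gcg call was also lost when cells with 2 markers were kept (5.07, adjusted p = 0.0930, edgeR). Th in Pzp over Gcg cells did not pass (-0.75, SE 1.61, adjusted p = 0.999). That contrast set 9, 0 and 4 reads in Pzp cells against 0, 1 and 110 in Gcg cells, so nothing is read from it.

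Not every Gip cell held Th. A Th read was found in 4 of 10, 4 of 5 and 8 of 10 Gip cells, and the cell medians were 0, 49.2 and 70.3 CPM with highest cells at 388, 778 and 832 CPM. At 50 CPM there were 19 Th cells: 12 Gip cells, 3 with both Gcg and Gip, 3 without a marker, 1 Pzp cell and no Gcg cell. Th was thus present in 12 of 25 cells with Gip alone, and in 3 of the 5 cells with 2 markers (114, 125 and 171 CPM).

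**Figure D2:**
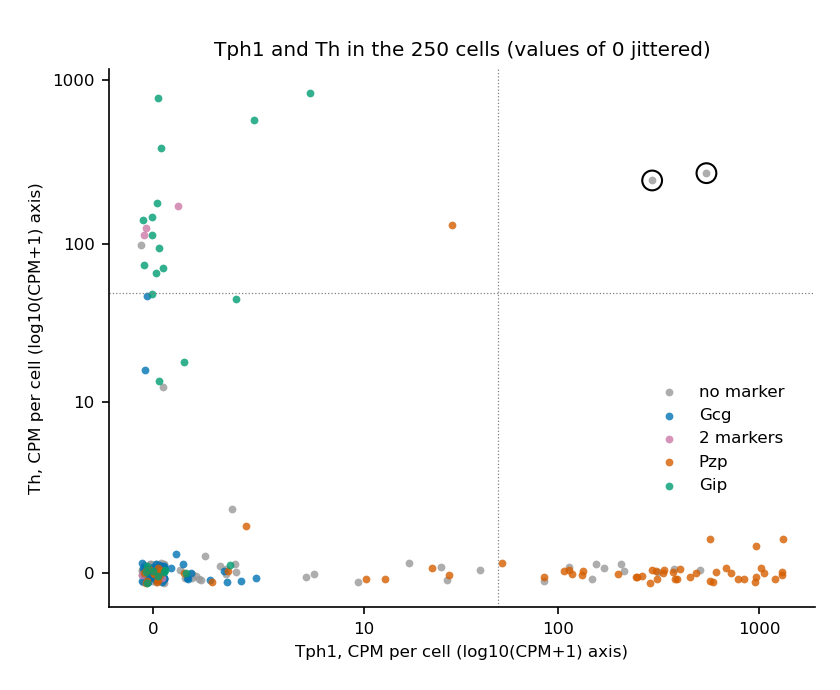
Tph1 (horizontal) against Th (vertical) in each of the 250 cells, both in CPM on log(CPM+1) axes and coloured by marker group, with dotted lines at 50 CPM. Of 52 Tph1 cells and 19 Th cells, 2 were both (circled), and neither of these reached a marker cut.

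Only 2 cells reached 50 CPM of both hydroxylases. In SLX-11175 such a cell held Tph1 at 294 CPM and Th at 245 CPM, with Ddc at 849 CPM and Slc18a1 at 131 CPM. In SLX-9703 a second one held Tph1 at 546 CPM, Th at 271 CPM, Ddc at 105 CPM and Slc18a1 at 229 CPM. Both had very high neurotensin (Nts, a gut peptide hormone), at 182572 and 185674 CPM, and Gip at 0 and 75.2 CPM.

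That led, after the values had been seen, to a look at all cells with Nts at 100000 CPM or more, of which there were 5, 7 and 1. Of these 13 cells 11 reached no marker and 2 were Pzp cells. Tph1 was at 50 CPM or more in 10 of them and Th in 3, and 7 held Tph1, Ddc and Slc18a1 together. Of the 12 Tph1 cells without a marker, 9 were among these neurotensin cells. The Pzp cell that held Th (131 CPM) was another, with Nts at 346956 CPM and Tph1 at 29.2 CPM. By contrast, all 40 Tph1 cells of the Pzp group had cholecystokinin (Cck) at 10000 CPM or more, with a median of 124836 CPM, and 7 had Nts at that level. Such Cck levels were not particular to Tph1 cells. Among cells with Ddc at 50 CPM or more, 58 of 61 Pzp and 48 of 50 Gcg cells had them. The look at neurotensin cells is a description with no test, since 12 of the 13 cells came from the shallow pools.

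Ddc (ENSMUSG00000020182, chr11:11814101-11898144, minus strand) was shared by the groups. Its summed level was 231, 275 and 426 CPM in Pzp cells (311 ± 102, SD, n = 3 pools), 240, 215 and 486 CPM in Gcg cells (314 ± 149) and 314, 496 and 662 CPM in Gip cells (490 ± 174). The Pzp and Gcg sums overlapped, and the Gip sum was highest in each pool. Single cells held 43.9%, 53.8% and 26.8% of the reads of the Gip sums, which were 274, 377 and 576 CPM without them. Cell medians did not keep that order. They were 168, 238 and 411 CPM in Pzp cells, 202, 172 and 387 CPM in Gcg cells, and 301, 448 and 223 CPM in Gip cells, lowest there in SLX-9703. A read was present in 63 of 64 Pzp, 52 of 53 Gcg and 23 of 25 Gip cells. The gene overlaps the antisense transcript 1700042O10Rik, and how reads over both were assigned is not given in the sources used here.

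The Ddc difference between Pzp and Gcg cells was -0.18 on the log2 scale (SE 0.38), smaller than its error (adjusted p = 0.999, edgeR's quasi-likelihood test). In Gip over Gcg cells it was 1.22 (SE 0.39, adjusted p = 0.172), and in Pzp over Gip cells -1.40 (SE 0.39, adjusted p = 0.0740), neither past the threshold in edgeR. The second passed in 4 of 14 alternatives and both passed with DESeq2. Gip itself took 28.1%, 44.5% and 37.9% of all reads of the Gip sums, and after scaling the median of all genes stood at -0.24 in Gip over Gcg cells, at 0.24 in Pzp over Gip cells and near 0 in Pzp over Gcg cells, against which these values are to be read.

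Per kilobase of exon, the levels within Pzp cells were 69.6 ± 22.9 CPM per kilobase for Ddc, 52.02 ± 38.95 for Tph1 and 29.6 ± 2.95 for Slc18a1 (SD, n = 3 pools), and Tph1 did not differ from Ddc beyond that spread. In Gip cells Ddc stood at 110 ± 38.98 CPM per kilobase and Th at 55.3 ± 19.1.

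Slc18a1 (ENSMUSG00000036330, chr8:69037711-69089235, minus strand), the vesicular transporter of endocrine cells, followed the order Pzp, Gcg, Gip. Its summed level was 144, 161 and 175 CPM in Pzp cells (160 ± 15.95, SD, n = 3 pools), 84.8, 44.4 and 72.98 CPM in Gcg cells (67.4 ± 20.8) and 7.14, 30.4 and 29.4 CPM in Gip cells (22.3 ± 13.2). Within each pool the sum was highest in Pzp cells and lowest in Gip cells. How often genes at large show such an order was not counted. The Pzp sums were 1.69-fold, 3.63-fold and 2.40-fold the Gcg sums of the same pool, and 5.29-fold and 5.96-fold the Gip sums in SLX-11179 and SLX-9703, while SLX-11175 had 3 reads in its Gip sum. A single cell held all 17 reads of the Gip sum in SLX-11179, and another held 81.2% of the 404 reads in SLX-9703, where the sum was 6.57 CPM without it.

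Under edgeR's quasi-likelihood test none of the Slc18a1 differences passed: the log2 fold change was 2.06 in Pzp over Gip cells (SE 0.55, adjusted p = 0.0586), 1.05 in Pzp over Gcg cells (SE 0.51, adjusted p = 0.999) and -1.02 in Gip over Gcg cells (SE 0.54, adjusted p = 0.477). The first passed in 6 of 14 alternatives. Cells with a read numbered 57 of 64 in Pzp, 42 of 53 in Gcg and 9 of 25 in Gip, and thinned to 20000 reads the expected shares were 76.6%, 55.6% and 19.02%. The gene overlaps Gm15716 and Atp6v1b2 on the other strand, with the same limit.

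Slc18a2 (ENSMUSG00000025094, chr19:59260896-59296012, plus strand), the transporter better known from neurons and mast cells, was nearly absent. A read was found in 26 of the 250 cells, 18 of them in SLX-9703, and 3 cells reached 50 CPM. Those were 2 Gcg cells and 1 cell with Pzp and Gcg, the highest at 148 CPM. No Tph1 cell of the 52 held Slc18a2 at 50 CPM. Summed levels were 3.53, 0.617 and 1.99 CPM in Pzp cells, 0.893, 6.88 and 6.96 CPM in Gcg cells and 0, 0 and 3.06 CPM in Gip cells, and the gene was removed from the test by the filter on low counts. Single cells held much of these sums: all 11 reads of the Gcg sum in SLX-11179 came from 1 cell, and without the cell with most reads the SLX-9703 sums were 1.08, 4.11 and 1.56 CPM in Pzp, Gcg and Gip cells.

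**Figure D3:**
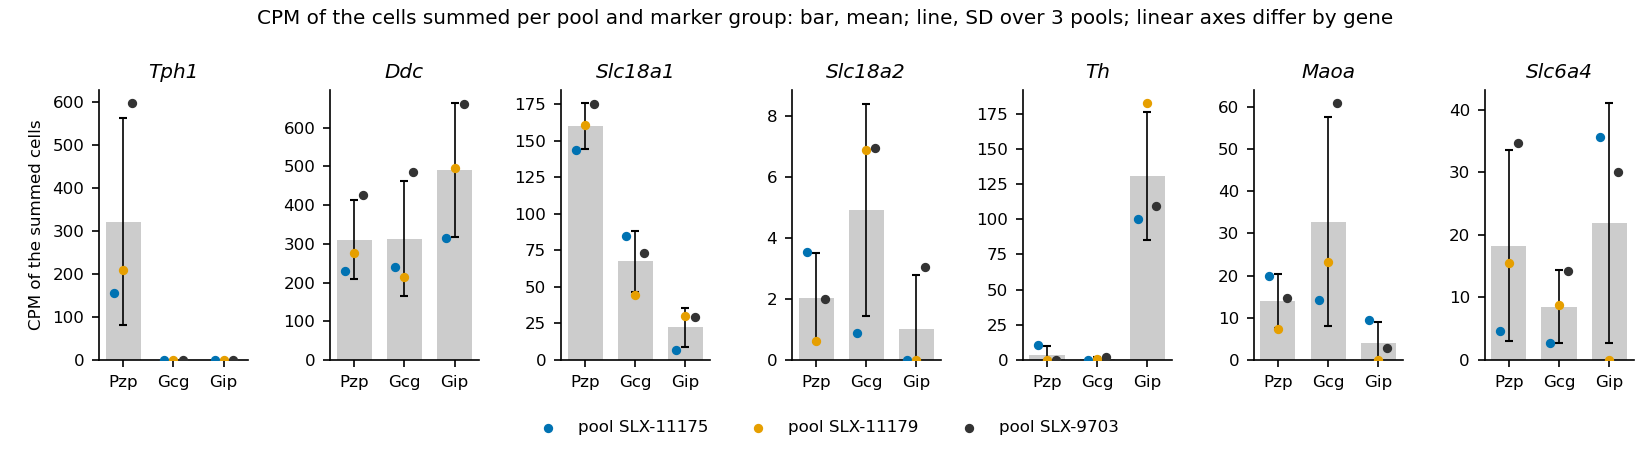
CPM of the summed Pzp, Gcg and Gip cells for each of the 7 genes on linear axes that differ by gene, with bars for the mean, lines for the SD over 3 pools and points for the pools. Tph1 stands at 321 CPM in Pzp cells, Th at 131 CPM in Gip cells, Slc18a1 steps down from 160 to 67.4 and 22.3 CPM, and Ddc is high in all 3 groups.

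Maoa (ENSMUSG00000025037, chrX:16619698-16687818, plus strand) was low and patchy in the marker groups. Its summed level was 20.0, 7.40 and 14.6 CPM in Pzp cells, 14.3, 23.1 and 60.9 CPM in Gcg cells and 9.51, 0 and 2.84 CPM in Gip cells. Single cells weighed on all of these sums: without the cell that held most reads, they were 7.52, 4.44 and 7.46 CPM in Pzp cells, 5.66, 12.6 and 29.3 CPM in Gcg cells, and 0 and 1.64 CPM in the Gip cells of SLX-11175 and SLX-9703. Pzp and Gcg cells overlapped, and no contrast passed edgeR's quasi-likelihood test, with a log2 fold change of -2.89 (SE 1.15, adjusted p = 0.299) in Gip over Gcg cells, -1.61 (SE 1.00, adjusted p = 0.999) in Pzp over Gcg cells and 1.29 (SE 1.09, adjusted p = 0.676) in Pzp over Gip cells. Of 22 cells at 50 CPM or more, 8 were Gcg cells, 4 Pzp cells and 1 a Gip cell.

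Maoa was also at 50 CPM or more in 8 of the 103 cells without a marker, where 1 cell held 73.4% of all Maoa reads. The 4 highest of these held 2294, 1407, 760 and 727 CPM of Maoa, against 750 CPM in the highest Gcg cell, 209 CPM in the highest Pzp cell and 74.05 CPM in the highest Gip cell. The same 4 cells held the enterocyte gene Alpi (intestinal alkaline phosphatase) at 718, 532, 303 and 319 CPM and Apoa1 (an apolipoprotein) at 5009, 5624, 223 and 880 CPM. The highest Gcg cell held them too, with Alpi at 446 CPM and Apoa1 at 2072 CPM beside Gcg at 66014 CPM, and the part of enterocyte RNA in these Maoa levels was not tested.

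Slc6a4 (ENSMUSG00000020838, chr11:76998603-77032340, plus strand) did not separate the groups. Its summed level was 4.71, 15.4 and 34.7 CPM in Pzp cells, 2.68, 8.76 and 14.2 CPM in Gcg cells and 35.7, 0 and 30.1 CPM in Gip cells. The ranges overlapped across pools, while Pzp cells were above Gcg cells within each pool. In the Gip cells of SLX-9703 a single cell held 86.9% of the 413 reads, and the sum was 4.67 CPM without it. In SLX-11175 a cell held 9 of the 15 reads of the Gip sum (22.3 CPM without it), 3 of the 4 reads of the Pzp sum and all 3 of the Gcg sum, and in SLX-11179 the Gcg sum was 4.64 CPM without its highest cell. The 17 cells at 50 CPM or more were 8 Pzp, 3 Gcg, 3 Gip and 3 markerless cells, and the highest, a Pzp cell of SLX-9703, reached 392 CPM. Log2 fold changes were 0.73 (SE 1.09) in Pzp over Gcg cells, 1.92 (SE 1.27) in Gip over Gcg cells and -1.19 (SE 1.22) in Pzp over Gip cells, with adjusted p of 0.999, 0.599 and 0.743 by edgeR's quasi-likelihood test.

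**Figure D4:**
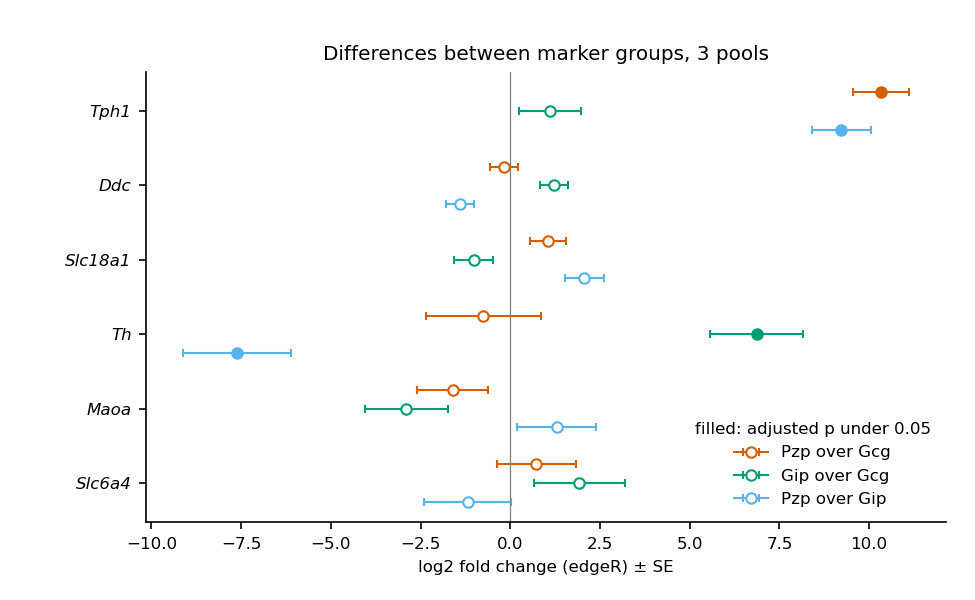
Log2 fold change with its SE (horizontal) for the 6 members tested in the 3 contrasts, fitted over 3 pools with edgeR. Filled points, with an adjusted p under 0.05, are Tph1 in Pzp over Gcg cells (10.34) and in Pzp over Gip cells (9.23), and Th in Gip over Gcg cells (6.87) and in Pzp over Gip cells (-7.62).

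Putting the steps together cell by cell, 46 of the 52 Tph1 cells also held Ddc at 50 CPM, and 37 held Tph1, Ddc and Slc18a1. In the Pzp cells the full set was present in 5 of 14, 4 of 22 and 21 of 28 cells, and in the cells without a marker in 2 of 32, 3 of 41 and 2 of 30. The shares in the Pzp cells were lower in the shallow pools, and the part of depth in that was not tested. Of the 19 Th cells, 18 held Ddc and 7 held a vesicular transporter as well. The 12 Th cells of the Gip group included 11 with Ddc but 3 with a transporter. Ddc occurred without either hydroxylase in 132 cells, of which 69 held Slc18a1, among them 50 of the 53 Gcg cells, 22 of them with Slc18a1.

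**Figure D5:**
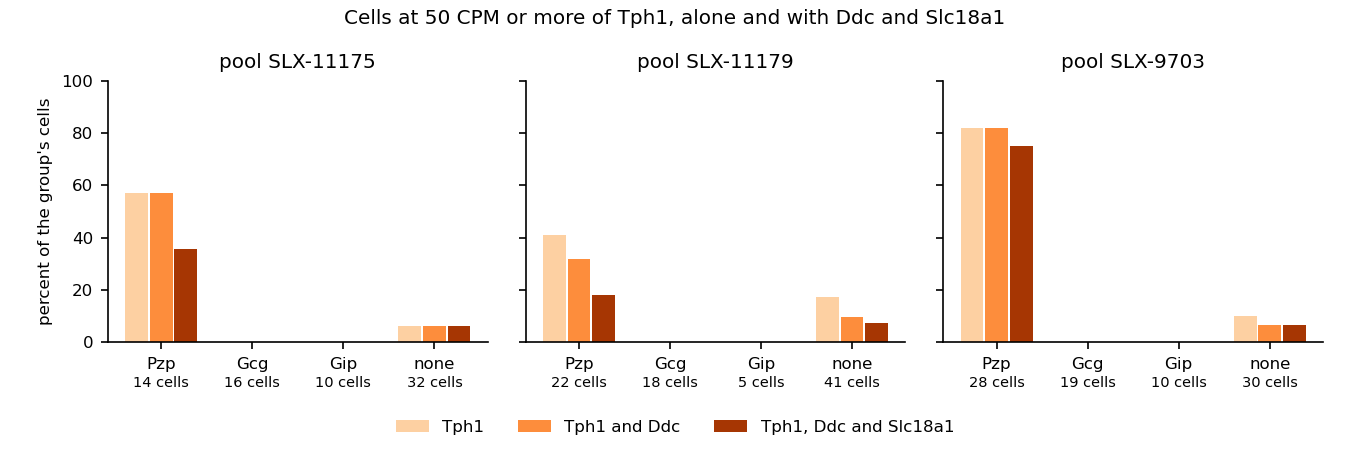
Percent of the cells of each marker group, by pool, with 50 CPM or more of Tph1, of Tph1 and Ddc, and of Tph1, Ddc and Slc18a1. No Gcg or Gip cell reached the cut for Tph1, and 21 of 28 Pzp cells of SLX-9703 held all 3.

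Within Pzp cells, co-detection with Tph1 was compared pool by pool at 50 CPM. Ddc was present in 8 of 8 Tph1 cells and 5 of 6 others in SLX-11175, in 7 of 9 and 13 of 13 in SLX-11179, and in 23 of 23 and 5 of 5 in SLX-9703. Slc18a1 was present in 5 of 8 and 4 of 6, in 5 of 9 and 9 of 13, and in 21 of 23 and 5 of 5. At that level the share with Slc18a1 was 62.5% against 66.7%, 55.6% against 69.2% and 91.3% against 100%. By a single read it was 80% against 50% in SLX-11175, so that the direction in that pool turned with the measure, and no test was made at the level of cells. The Spearman correlation of Tph1 with Slc18a1 across Pzp cells was 0.48, -0.22 and -0.26, and with Ddc -0.24, -0.07 and -0.09 (14, 22 and 28 cells), so the correlations with Slc18a1 shared no direction over the pools. Over all cells of a pool, which include the markerless cells with leukocyte or enterocyte genes, Tph1 and Slc18a1 correlated at 0.38, 0.19 and 0.31 (75, 87 and 88 cells), while Tph1 and Ddc were at 0.14, -0.03 and -0.05.

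Sums of Pzp cells with Tph1 at 50 CPM or more (8, 9 and 23 cells) were also set against sums of those below (6, 13 and 5 cells), to ask whether the rest of the route moves with Tph1. By edgeR's quasi-likelihood test 0 of 6599 genes passed (203 had an unadjusted p under 0.05), against 7 with DESeq2. The log2 fold change was -0.05 for Ddc (SE 0.31), -0.17 for Slc18a1 (SE 0.40), 1.53 for Maoa (SE 1.18) and -0.37 for Slc6a4 (SE 1.05), each with an adjusted p of 0.999.

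The other genes of the route were mostly broad or absent. The neuronal tryptophan hydroxylase Tph2 had a read in 1 cell, dopamine beta-hydroxylase (Dbh) in 2, the adrenaline enzyme Pnmt in 1, and Aanat, which leads to melatonin, in none. The plasma membrane transporters Slc6a2, Slc6a3 and Slc22a3 had reads in 5, 7 and 2 cells. Histidine decarboxylase (Hdc) had reads in 144 cells at a mean summed level of 10.6 CPM. Gch1, the first enzyme of the tetrahydrobiopterin cofactor that both hydroxylases need, stood at 102 ± 15.4 CPM in Pzp, 140 ± 68.9 CPM in Gcg and 141 ± 52.8 CPM in Gip cells (SD, n = 3 pools), overlapping.

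Monoamine oxidase B (Maob) was read mainly in Pzp and Gcg cells. Its summed level was 50.6, 95.03 and 156 CPM in Pzp cells and 13.4, 2.50 and 55.7 CPM in Gcg cells. The ranges overlapped across pools, while Pzp cells were above Gcg cells within each pool. A read was found in 0 of the 25 Gip cells (exact 95% upper limit 13.7% for the share with a read at these depths). A read was found in 47 of 64 Pzp and 20 of 53 Gcg cells. Maob passed edgeR's quasi-likelihood test in Pzp over Gip cells (adjusted p = 0.00126) and in Gip over Gcg cells (adjusted p = 0.0154), but with Gip cells at 0 the fitted folds are no bound. It did not pass in Pzp over Gcg cells (log2 fold change 2.46, SE 0.80, adjusted p = 0.548).

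By list, of the 9 tested genes of monoamine breakdown Maob alone passed, and of the 17 tested subunits of the vesicular proton pump and the 8 cofactor genes none passed in any contrast. With 0.249%, 1.1% and 2.84% of all genes past the threshold in Pzp over Gcg, Gip over Gcg and Pzp over Gip cells, lists of this size would hold few or no such genes, and nothing about the lists is read from these counts. The cofactor genes had a median log2 fold change of -0.15 in Pzp over Gcg cells and 0.84 in Pzp over Gip cells, beside -0.01 and 0.24 for all genes. Among the genes of amino acid supply, the neutral amino acid transporter Slc6a19 was lower in Pzp than in Gip cells (log2 fold change -2.14, SE 0.42, adjusted p = 0.0111, edgeR). Of the 7 tested genes associated with enterochromaffin cells, Chgb was lower in Pzp than in Gcg cells (-3.33, SE 0.52, adjusted p = 0.00998), and Chgb (-2.60) and Chga (-2.85) were lower in Gip than in Gcg cells (adjusted p of 0.0196 and 0.0234, edgeR's quasi-likelihood test). Beside the Pzp over Gip contrast of Tph1 and Slc18a1, the goblet genes Agr2, Tff3 and Fcgbp were higher in Pzp cells by 8.74, 5.08 and 5.13 on the log2 scale (adjusted p of 1.06e-05, 0.00061 and 0.00924, edgeR).

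The genes whose levels ran most like a member's were ranked by the lowest of the 3 within-pool Spearman correlations across all cells of a pool, among 5333 genes detected in at least 20% of the cells of every pool. The cells of a pool share a library pool and include those of other types named above, whose part in these correlations was not tested. For Tph1 they were Gpx3 (a secreted glutathione peroxidase, 0.71, 0.63 and 0.62 in the 3 pools), Onecut3, Cyp2j5, Fcgbp and Anxa2. For Slc18a1 they were Ms4a8a (0.66, 0.67 and 0.66), Selenop, Scg2 (secretogranin 2), Sct (secretin) and Lgals2. For Ddc they were Cd81 (0.61, 0.65 and 0.50), Cib1, Bex3, Tspan1 and Scgn (secretagogin). No gene was shared by the 3 lists. Tph1 was ranked whatever its detection, with a read in only 12 of the 75 cells of SLX-11175, while Slc18a2, Th, Maoa and Slc6a4 fell under 20% of the cells in at least 1 pool and were not ranked.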

How the data were processed

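Cells were sorted by fluorescence into wells, amplified by SMART-Seq2 without molecular identifiers and sequenced. The authors deposited raw counts per gene and cell; their processing notes name GSNAP 2015-09-29, HTSeq 0.5.3p3 and mm10. Rows that name no gene held 77.6% of the reads and were left out with the spike-ins (5.34%); mouse genes held 17.1%. Of 292 columns, 4 belong to no sample here and were not used.

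Counts were summed per pool and marker group and tested with edgeR 4.0.16 (R 4.3.3; glmQLFit and glmQLFTest, TMM, filterByExpr, pool as block), with Benjamini-Hochberg adjustment over all genes tested and a threshold of 0.05. DESeq2 1.42.0 was an alternative. CPM are scaled to 1000000 mouse gene reads. Deviations of groups from the same pool correlated at 0.024 to 0.41 (9 pairs) and from different pools at -0.20 to 0.077 (18 pairs); pools were taken as mice, which the labels do not state. Scripts were tested on simulated data. Detection shares were thinned to 20000 reads by expectation; intervals are exact 95% binomial and, like floors of 3 reads, cover counting error only. Reads without molecular identifiers are not independent molecules. The members, lists and cuts were chosen with earlier results of these data known. Besides the members, the text names list genes past the threshold, the direct neighbours' detection (1 neighbour is not reported here) and the 5 most alike genes; the Nts cut of 100000 CPM, the Alpi and Apoa1 levels, and the sums without their highest cell, were chosen after the values were seen. The filter left 9654 of 28718 genes for the marker groups and 6599 of 25364 for the Tph1 split.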

Additional observations from a re-analysis of the deposited data

Results flagged for a closer look

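Signals of 3 members in cells outside the 3 marker groups were flagged, and cells with 2 markers entered 1 alternative. The other members also reached 50 CPM in such cells, among them Slc18a1 in 38 and Ddc in 57 cells without a marker. Tph1 was at 50 CPM or more in 12 of the 103 cells without a marker, with a level of 45.6 CPM summed over these cells of all pools, where 3 reads would be 0.0570 CPM. By pool the level was 17.7, 27.1 and 49.6 CPM. Of the 2404 reads 1 cell held 1226, and the level over all pools was 23.4 CPM without it. Th was at 50 CPM or more in 3 of the 5 cells with 2 markers, all 3 with Gcg and Gip, with a summed level of 158 CPM, of which 1 cell of SLX-9703 held 95.6% of the reads (58.99 CPM without it). Maoa was at 50 CPM or more in 8 of the 103 cells without a marker, with a summed level of 223 CPM, of which 1 cell held 73.4% of the reads (63.8 CPM without it). By pool the Maoa level in these cells was 22.2, 33.7 and 257 CPM. Without the cell with most reads in each pool it was 4.99, 4.39 and 70.4 CPM.

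The labels give these cells no group of their own and do not mark which were non-fluorescent controls; the study describes such controls for the mice sequenced at lower depth alone, and the part of such cells in these counts was not tested.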

How the results depend on the processing

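The Tph1 difference kept its direction and its side of the threshold in all 14 alternatives, at 9.38 to 10.47 in Pzp over Gcg cells (highest adjusted p 0.000928, edgeR or DESeq2) and at 8.52 to 10.82 in Pzp over Gip cells (0.00255). Th passed in 12 of 14 alternatives in Gip over Gcg cells and in 13 of 14 in Pzp over Gip cells. It was lost without SLX-11179 and, in the first, with cells of 2 markers kept (5.07, adjusted p = 0.0930, edgeR); leaving out each pool in turn gave 6.43 to 8.73 and -11.85 to -5.86. Ddc in Gip over Gcg cells passed with DESeq2 (1.32), and in Pzp over Gip cells with RLE size factors (-1.47), DESeq2 (-1.47), marker cuts 3 times higher (-1.53) and 2-marker cells kept (-1.47). Slc18a1 in Pzp over Gip cells passed with DESeq2 (2.00), no filter (2.23), thinned cells (1.96), a minimum of 10000 reads (2.05), 2-marker cells kept (2.04) and no replicate block (2.07, adjusted p = 0.0492).

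Leaving out the pool as a block gave 18, 101 and 252 genes past the threshold in Pzp over Gcg, Gip over Gcg and Pzp over Gip cells, against 24, 106 and 274, and changed no other member's call. The first count was 115 with DESeq2, 68 with no filter, 57 with thinned cells, 44 with higher cuts, 39 with 2-marker cells kept and 7 to 12 without each pool; the share higher in Pzp cells moved from 41.7% to 57.4% with no filter, 63.2% with thinned cells and 66.7% to 85.7% without each pool. The second was 546, 248 and 165 under the first 3 of these, 58 with a minimum of 50000 reads and 37 to 50 without each pool. The third was 795 and 451 under the first 2, 160 with that minimum and 98 to 129 without each pool. Genes by Tph1 level numbered 7 with DESeq2, 5 with no filter and 0 to 6 without each pool.

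Differences that never passed and turned were Th in Pzp over Gcg cells (2.73 thinned, 0.61 with no block, -4.91 to 2.87 without each pool), Tph1 in Gip over Gcg cells (-0.51 with SLX-9703 at 750000 reads or more, -0.013 to 1.11 without each pool), Slc6a4 in Pzp over Gip cells (0.36 with a minimum of 50000 reads, -2.06 to 0.33 without each pool) and, by Tph1 level, Ddc (0.025 with that minimum, 0.059 with higher cuts, -0.12 to 0.12 without each pool), Slc18a1 (-0.54 to 0.15 without each pool) and Slc6a4 (0.21 with a Tph1 cut of 200 CPM, -1.15 to 0.078 without each pool). Over all 14 alternatives the Th value ranged from -6.66 to 2.87 (lowest adjusted p 0.0576, edgeR or DESeq2). These Th and Tph1 contrasts set groups with few or no reads against each other, so nothing is read from their turns. The cause of the turns was not tested, apart from the fewer samples or genes that some of these settings hold by construction. A single read in a cell of 20000 reads is 50 CPM, so that lower levels were not detectable in the shallowest cells, and 3 pools limit every test.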
